A study of Mus musculus with 12 samples.

Results

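Fndc3b regions are the stretches of chromatin-associated RNA recovered with HP1γ that overlap chromosome 3, 27310000 to 27615000 (mm9), a span of 305.001 kb given for the mouse gene Fndc3b. All rows of the 2 deposited region lists that overlap this span by at least 1 bp were taken: 27 of 10013 regions from untreated cells and 11 of 2609 from cells treated with the phorbol ester PMA, or 38 of 12622 in all. The span was chosen by its region numbers in these lists, so numbers, widths, folds and replicate support are described here without a test. The chromosomal span is the only link to the gene. No gene model of mm9 was used, so no region is assigned to an exon, an intron or a UTR.

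The cells are lines derived from mouse embryonic fibroblasts that are knocked out for HP1γ (Cbx3) and had its expression restored, and all 4 groups share this genotype. In RNAchIP-seq, chromatin is made soluble from nuclei after mild formaldehyde fixation, HP1γ is immunoprecipitated from it, and the RNA of the precipitate (IP) is sequenced beside that of the chromatin input. The groups, of 3 libraries each, are input and IP from untreated cells, and input and IP from cells given 100 nM PMA in DMSO for 30 min. The labels name no mock IP, no IP from cells without HP1γ and no DMSO control among these groups, so specific and unspecific recovery of RNA cannot be told apart. Each region carries the authors' fold enrichment of IP over input, read as a mean over the replicate peaks joined in it. Values per library and read depths are not in the lists, so depth is unknown and no region has a replicate error.

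HP1γ reads methylation of histone H3 through its chromodomain. Besides heterochromatin it is found along the bodies of active genes, where it has been linked to transcript elongation and to splicing. PMA activates protein kinase C and is a common way to set off rapid signalling in cultured cells. Fndc3b encodes a membrane-anchored protein with fibronectin type III domains, also known as Fad104, which has been studied in adipocyte differentiation and in the adhesion and migration of fibroblasts. In the RefSeq annotation of another build, GRCm38.p6, Fndc3b is 295.173 kb long and lies on the minus strand, so transcription runs from high to low coordinates. Its next protein-coding neighbours in that build are Ghsr, the ghrelin receptor, on the low side and Tmem212 on the high side. The same annotation places the non-coding RNA Gm32738 and the microRNA gene Mir3092 inside Fndc3b, and because the lists give no strand, their RNA cannot be told apart from that of Fndc3b.

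In untreated cells, regions enriched with HP1γ lay along nearly the whole Fndc3b span. The first began 14.432 kb inside its low edge and the last ended 4.81 kb from its high edge, the side where transcription starts. The 27 regions covered 14155 bp, or 4.64% of the span. After PMA, 11 regions covered 7522 bp, or 2.47%, and ran from 20.549 kb inside the low edge to 6.55 kb from the high edge. The untreated list thus held 2.45 times as many regions here, against 3.84 times over the whole lists. Fndc3b made up 0.27% of all untreated regions and 0.422% of all PMA regions.

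The number of regions depends on how replicate peaks were joined, since each region needs at least 3 member peaks. Untreated member peaks come from 3 replicates, and PMA member peaks bear the numbers of replicates 2 and 3 only. Leaving out the member peaks of untreated replicate 1, 2 or 3 and still asking for 3 left 3, 4 and 4 untreated regions, fewer than the 11 after PMA. Over the whole untreated list it left 1505, 1988 and 2367 regions, also fewer than the 2609 of the PMA list. With the untreated list shortened to the length of the PMA list by −log10 q, 10 remained. The direction of the difference in region number therefore turned under each of these 4 settings. For the 3 settings without a replicate, the turn follows from the rule of 3 member peaks. Of the 27 untreated regions, 23 had exactly 3 member peaks, and no PMA replicate was left out in return. These 3 settings thus cannot test the direction. Without a replicate the direction turned over the whole lists too, so the turn is not particular to Fndc3b. At equal list length, 10 against 11 regions is close to parity.

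Few regions of either list lay beside the span. The nearest untreated regions outside the span were at 27131260 to 27131929, with 192.502 kb empty of regions before the first Fndc3b region, and at 27873326 to 27873845, with 263.135 kb empty after the last. For PMA the empty stretches were 224.116 kb on the low side and 2294.7 kb on the high side. In the adjoining stretches of the same length as the span, the untreated list had 4 regions on the low side and 1 on the high side, and the PMA list had 1 and 0. When all chromosomes were divided into windows of this length, the median window with any region held 2 untreated regions or 1 PMA region. Fndc3b ranked 10 among 2643 such untreated windows and 7 among 1300 PMA windows, both ranks tied, which describes a span chosen for its many regions. On chromosome 3 the windows were aligned to the span, so no window edge cut Fndc3b, while other genes may be cut.

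**Figure D1:**
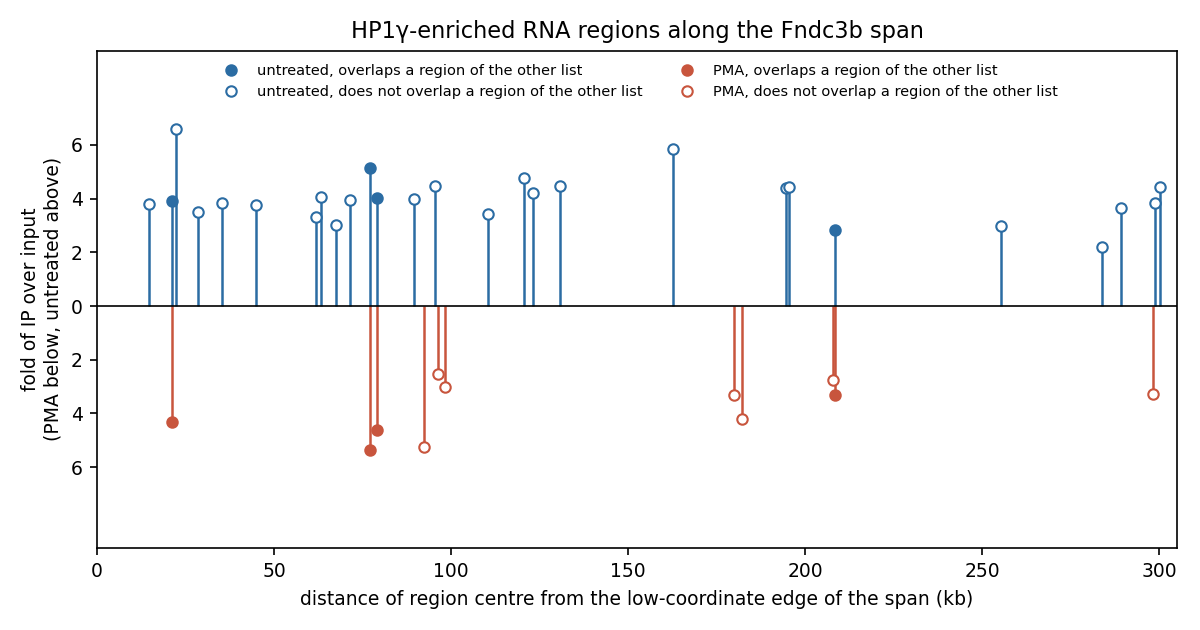
Fold enrichment of IP over input (vertical axis, untreated upward and PMA downward) of each region against the distance of its centre from the low-coordinate edge of the Fndc3b span in kb (horizontal axis). Filled points are the 4 regions of each list that overlap a region of the other list. Untreated regions are dense up to about 131 kb and sparse between 208 and 284 kb, where the PMA list has a gap too.

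The strongest untreated region was narrow and lay near the low edge, which is the 3′ side of the gene. This region, at 27332213 to 27332500, was 288 bp wide with a fold of 6.59, and no PMA region overlapped it, although the nearest was 674 bp away. The next was at 27472267 to 27473067, 801 bp wide with a fold of 5.85, and 16503 bp from the nearest PMA region. A fold of 5.15 was found at 27386774 to 27387202, of 4.77 at 27430349 to 27430993, and of 4.47 at 27440714 to 27441001. Of these 5, only the region with a fold of 5.15 overlapped a PMA region. The lowest untreated folds were 2.19 at 27593689 to 27594155, with a mean −log10 q of only 1.29, and 2.82 at 27518183 to 27518581. Both of these lay in the part of the span nearer the transcription start, but so did the region with a fold of 5.85. The median untreated fold was 3.97 in the 152.5 kb at lower coordinates and 3.82 in the rest of the span.

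The widest untreated region was at 27330466 to 27331577, with 1112 bp and a fold of 3.89. It was followed by a 905 bp region at 27354538 to 27355442 (fold 3.76) and by the 801 bp region named above. The first and the last region along the span were at 27324432 to 27325041 (610 bp, fold 3.79) and at 27609970 to 27610190 (221 bp, fold 4.43). The last was the narrowest of the 27. The 3 widest regions were made of more member peaks: the 1112 bp region joined 6, the 905 bp region 5, and the 801 bp region 4, while 23 of the 27 had exactly 3, against 77.5% of the untreated list.

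Replicate support in untreated cells was close to that of the list as a whole. A member peak in each of the 3 replicates was present in 25 of 27 regions (92.6%, exact 95% interval 75.7 to 99.1), against 91.9% of all untreated regions. Such intervals cover counting error only, and neighbouring regions of a gene are not independent. The 2 exceptions, picked out after their values were seen, were the first region, with 1 peak from replicate 2 and 2 from replicate 3, and a region at 27599053 to 27599566 (fold 3.66), with 2 peaks from replicate 1 and 1 from replicate 3. The region at 27330466 to 27331577 had 3, 2 and 1 peaks from replicates 1, 2 and 3, and it was the only Fndc3b region that kept 3 member peaks whichever replicate was left out.

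After PMA the highest fold was 5.38, at 27386570 to 27387297, with a mean −log10 q of 11.7. A fold of 5.24 followed at 27401812 to 27402584, 4.61 at 27388748 to 27389363 and 4.31 at 27330549 to 27331538. The last of these was also the widest, with 990 bp, and the only PMA region here with 4 member peaks, 2 from each replicate. A fold of 4.19 was found at 27491621 to 27492406, 3.32 at 27518125 to 27518765, 3.29 at 27489571 to 27490299 and 3.27 at 27607821 to 27608450. The other 3 regions had folds under 3: 3.00 at 27407976 to 27408702, 2.75 at 27517523 to 27517987 and 2.55 at 27406164 to 27406600. The last of them had the lowest mean −log10 q, 1.13, which is under −log10 of 0.05. All 11 PMA regions had member peaks of both replicates, as had 100% of the PMA list, and 10 had exactly 3 member peaks, against 83.6% of the list. No PMA region here had more than 2 member peaks from 1 replicate. With at least 3 needed, peaks of both replicates follow from this and are no separate support.

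The median fold of the Fndc3b regions was 3.96 in untreated cells (95% interval of the median 3.66 to 4.43, range 2.19 to 6.59), where the whole untreated list had 3.65. After PMA it was 3.32 (2.75 to 5.24, range 2.55 to 5.38), where the whole PMA list had 3.50. The intervals overlapped, but they cover the spread over regions within a list and not between replicates. Neighbouring regions are also not independent, so the overlap decides nothing about the conditions. With only regions of a mean −log10 q of 3 or more kept, the medians were 4.04 untreated and 4.25 after PMA. Their order thus turned. A fold above 3 was found in 24 of 27 untreated regions, against 77.6% of that list, and in 8 of 11 PMA regions, against 73.2%. Neither a difference in the strength of Fndc3b regions between the lists nor its absence can be read from these values.

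Fndc3b regions were narrower in the untreated list, with a median of 514 bp (interval 399 to 645) against 727 bp (465 to 786) after PMA. The whole lists differed in the same way, at 528 and 780 bp, so that PMA regions were 1.41 times as wide at Fndc3b and 1.48 times over the lists. With 3 member peaks from 2 replicates, a PMA region joins at least 2 peaks of 1 replicate, while most untreated Fndc3b regions joined 1 of each. Whether this bears on width was not tested. The few untreated regions that kept 3 member peaks from 2 replicates had medians of 656, 853 and 853 bp without replicates 1, 2 and 3. The direction thus turned without replicate 2 and without replicate 3. In both cases the 4 regions left included the 3 widest, of 1112, 905 and 801 bp, which had 6, 5 and 4 member peaks. This turn is therefore set by which regions could stay, and it decides nothing about width. The bounds of such regions were also still those set by all 3 replicates.

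**Figure D2:**
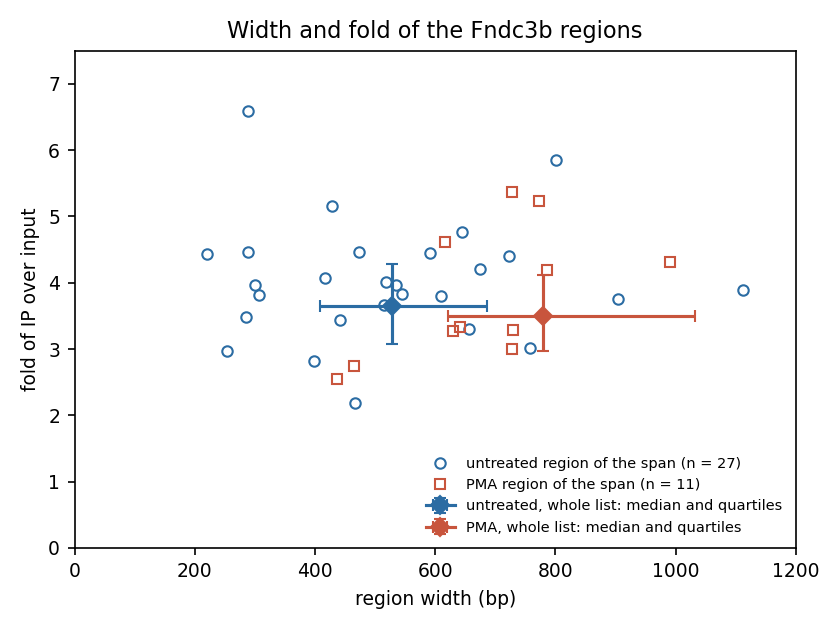
Width in bp (horizontal axis) and fold enrichment of IP over input (vertical axis) of the 27 untreated (circles) and 11 PMA regions (squares) of the Fndc3b span. Diamonds give the median of each whole list and bars its quartiles: the Fndc3b points spread around both medians, and the untreated regions with folds of 6.59 and 5.85 stand above the rest.

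Regions of both lists overlapped at 4 places along Fndc3b. At the first, near the low edge, the PMA region at 27330549 to 27331538 lay wholly inside the untreated region at 27330466 to 27331577, with folds of 4.31 and 3.89. The next pairs were neighbours: 27386570 to 27387297 after PMA against 27386774 to 27387202 untreated, at 5.38 and 5.15, and 27388748 to 27389363 against 27388855 to 27389372, at 4.61 and 4.01. The fourth was at 27518125 to 27518765 against 27518183 to 27518581, at 3.32 and 2.82. The PMA fold was the higher in all 4 pairs, by 0.22 to 0.60, while over the whole lists 43.5% of shared PMA regions had a higher fold than their strongest untreated partner. Folds in the pairs are means over different replicates, and 4 pairs from 1 gene do not set Fndc3b apart from other shared regions. The PMA region was the wider in 3 of the 4 pairs, against 70.3% over the lists.

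Of the 11 PMA regions, 4 (36.4%, 10.9 to 69.2) had an untreated partner, against 54.8% of the whole PMA list, which lies inside this interval. Without any 1 untreated replicate, and with the untreated list at the length of the PMA list, only 1 of 11 (9.09%) had a partner. Only 3, 4 and 4 untreated regions were left without replicates 1, 2 and 3, and 10 at equal length. The lower share is therefore in part set by the shorter lists. Of the 27 untreated regions, 4 (14.8%, 4.19 to 33.7) had a PMA partner, against 15.5% of the whole untreated list. The untreated value was thus near that of the list. Several regions without a partner missed by little. The PMA region at 27607821 to 27608450 ended 79 bp before an untreated region at 27608530 to 27608836 (fold 3.82, picked out after its values were seen). The PMA regions at 27517523 to 27517987 and at 27406164 to 27406600 were 195 and 370 bp from an untreated region. With partners allowed within 1 kb, the shares became 63.6% of PMA and 25.9% of untreated regions.

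The remaining 4 PMA regions without a partner were farther from any untreated region. Those at 27401812 to 27402584 and 27407976 to 27408702 were 2015 and 2182 bp away. The neighbours at 27489571 to 27490299 and 27491621 to 27492406 were 13954 and 11847 bp away, in a stretch between the untreated region with a fold of 5.85 and a pair of untreated regions that begins at 27504254. The 23 untreated regions without a partner had a median distance of 11847 bp to the nearest PMA region and a maximum of 42544 bp. For the 7 PMA regions without a partner the median was 2015 bp. The PMA list held 11 regions here and the untreated list 27, so the longer untreated distances are in part set by these numbers.

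Position along the gene was described without a test. The 152.5 kb at lower coordinates, toward the 3′ end, held 18 of 27 untreated regions and 6 of 11 PMA regions. This leaves 33.3% (16.5 to 53.96) and 45.5% (16.7 to 76.6) on the side of the transcription start. Both intervals include an even split, but neighbouring regions are not independent, so neither a bias nor its absence can be read from them. For called peaks, the segment nearest the transcription start was the least dense of the longer segments in every replicate, as given below. The untreated share of regions on that side became 0% when replicate 1 was left out, 50% without replicate 2 and 25% without replicate 3. When the span was divided into 6 equal parts from low to high coordinates, the untreated list had 6, 8, 4, 3, 1 and 5 regions in them and the PMA list 1, 5, 0, 2, 2 and 1. The largest gap of the untreated list was 46.442 kb, after 27518581, and that of the PMA list was 89.055 kb, after 27518765. Parts of both gaps coincide, but the part with no PMA region was the third, where the untreated list had 4. Another PMA gap of 80.868 kb, after 27408702, held 5 untreated regions. Another region of the same list within 10 kb was present for 24 of 27 untreated regions, against 63.7% of that list, and for 9 of 11 PMA regions, against 42.1%, in a span chosen for its many regions.

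The member peaks allow a view of single replicates. Their numbers increase along the genome in every replicate. It was assumed that the called peaks of a replicate were numbered consecutively, which the order alone does not show. The first and the last number seen at Fndc3b then count the peaks a replicate called between them, joined or not. All counts of called peaks given here rest on this assumption. This gave 113 called peaks for untreated replicate 1, 79 for replicate 2 and 49 for replicate 3. After PMA it gave 96 for replicate 2 and 134 for replicate 3. In these counts the groups overlapped: PMA replicate 3 had the most, untreated replicate 1 came next, and untreated replicate 3 had the fewest. They are lower limits, since peaks beyond the outermost regions are not seen. The nearest regions outside the span set upper limits of 132, 88 and 58 in untreated cells and of 137 and 221 after PMA. At the upper limits both PMA replicates are above all 3 untreated ones, but the stretches they take in differ. Beyond the last Fndc3b region, PMA replicates 2 and 3 had 32 and 65 calls over 2294.7 kb. Untreated replicates 1 and 2 had 9 and 6 over 263.135 kb, and untreated replicate 3 had 7 over 2184.48 kb.

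The replicates also differed in how many peaks were called in the whole genome, so the Fndc3b peaks were set against the highest peak number of each. These totals were 87348 for untreated replicate 1, 40773 for replicate 2 and 33450 for replicate 3, and after PMA 49502 for replicate 2 and 92243 for replicate 3. Per 10000 called peaks, and by the lower limits, Fndc3b held 12.9, 19.4 and 14.6 in the untreated replicates and 19.4 and 14.5 in the PMA replicates. Replicate 2 of each condition had the same value to 3 digits, and PMA replicate 3 lay between untreated replicates 1 and 3. With 3 and 2 replicates, and a total that depends on a depth not known here, this is a description and not a test. By the upper limits the values were 15.1, 21.6 and 17.3 untreated and 27.7 and 24.0 after PMA, with both PMA replicates above the untreated ones. The upper limits take in stretches beyond the last region of 2294.7 kb after PMA, against 263.135 kb for untreated replicates 1 and 2. They therefore cannot compare the share of Fndc3b between the conditions. By the lower limits, neither PMA replicate fell below every untreated replicate, while the joined lists held 27 untreated and 11 PMA regions.

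The share of called peaks that ended in a joined region differed between the conditions. At Fndc3b, 32 of 113 peaks (28.3%) of untreated replicate 1 were joined, 28 of 79 (35.4%) of replicate 2 and 28 of 49 (57.1%) of replicate 3. After PMA, 18 of 96 (18.8%) were joined in replicate 2 and 16 of 134 (11.9%) in replicate 3. Each untreated replicate thus stood above both PMA replicates. The same held over the whole genome, where the share was 13.6%, 27.1% and 31.3% in the 3 untreated replicates, against 8.85% and 4.34% in the PMA replicates. Joining over 3 replicates in 1 list and over 2 in the other cannot be told apart from an effect of PMA here.

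**Figure D3:**
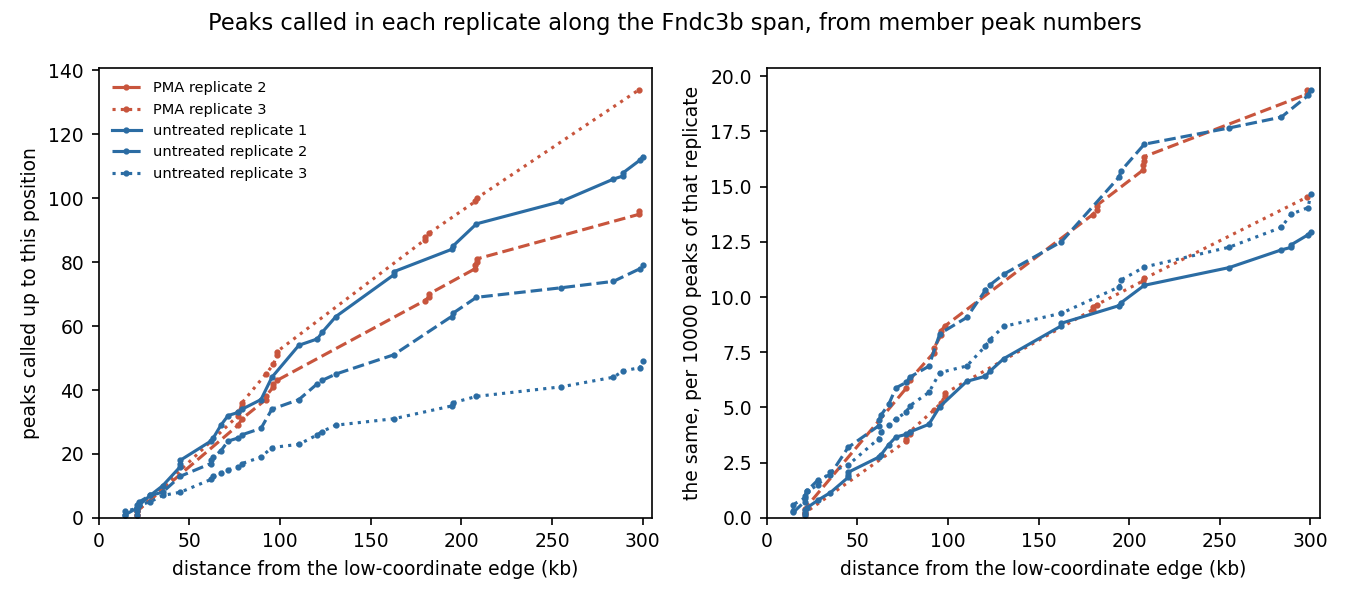
Number of peaks called in each replicate from its first joined peak at Fndc3b up to each position (left, lower limits), and the same per 10000 peaks of that replicate (right), against the distance from the low-coordinate edge in kb. Points are joined member peaks, blue lines untreated replicates and red lines PMA replicates. The left panel ends between 49 and 134 peaks, while in the right panel the lines end between 12.9 and 19.4 and the red lines run among the blue ones.

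Called peaks were dense at Fndc3b in every replicate. From the first to the last joined peak the density was 40.4 calls per 100 kb for untreated replicate 1, 27.6 for replicate 2 and 17.1 for replicate 3, and after PMA 34.5 for replicate 2 and 48.2 for replicate 3. Over chromosome 3 the same replicates had 3.00, 1.41, 1.28, 1.64 and 3.32 per 100 kb. Fndc3b was thus 13.5, 19.6 and 13.4 times as dense as its chromosome in the untreated replicates, and 21.0 and 14.5 times after PMA. Again the values of the conditions overlapped. The span was chosen for its many regions, so the high ratios to the chromosome are in part set by that choice.

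Unjoined peaks were also counted up to the nearest region on each side. These stretches include the outermost kb of the span, and their calls are those that separate the lower from the upper limits above. In the stretch from the nearest region on the low side up to Fndc3b, 192.502 to 224.116 kb long, there were 10, 3 and 2 unjoined calls for untreated replicates 1, 2 and 3, against 9 for PMA replicate 2 and 22 for PMA replicate 3. That is 5.04, 1.56 and 1.02 per 100 kb untreated and 4.02 and 9.82 after PMA. On the high side there were 3.42, 2.28 and 0.32 per 100 kb in the untreated replicates and 1.39 and 2.83 in the PMA replicates, but over stretches of 263.135 to 2294.7 kb. Between the first and the last joined peak of Fndc3b, unjoined calls alone came to 29.0, 17.8 and 7.35 per 100 kb untreated and 28.1 and 42.5 after PMA. The side stretches were bounded so that they hold no joined peak, and the span was chosen for its many regions, so their lower values are in part set by these choices.

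**Figure D4:**
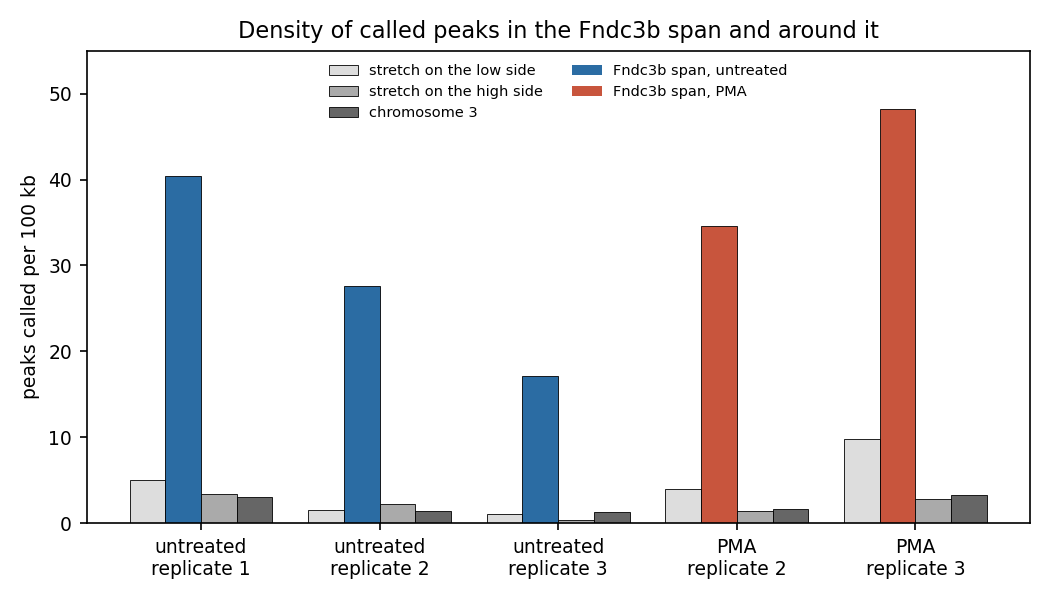
Called peaks per 100 kb (vertical axis) in each of the 5 replicates with member peaks. Coloured bars are the Fndc3b span, light bars the stretches up to the nearest region on each side, and dark bars the whole of chromosome 3: the coloured bars reach 17.1 to 48.2, and no other bar exceeds 9.82.

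The 4 shared places, together with the pair of regions 79 bp apart near the high edge, gave 4 segments in which calls could be counted in all 5 replicates. In the first segment, about 55 kb long, there were 29, 20 and 12 calls between the shared regions for untreated replicates 1, 2 and 3, against 26 for PMA replicate 2 and 29 for PMA replicate 3. The untreated list held 8 regions in this segment, and the PMA list none. Both PMA replicates thus called more peaks there than 2 of the 3 untreated replicates, and none of the PMA peaks was joined. These are raw counts, while the genome totals ran from 33450 in untreated replicate 3 to 92243 in PMA replicate 3. As a share of each replicate's peaks in all 4 segments, the first segment took 27.6%, 28.6% and 30% untreated. PMA replicate 2 had 29.5% and PMA replicate 3 the lowest share, 23.0%, so the order of the raw counts was not kept. In the second segment, under 2 kb, no untreated replicate and each PMA replicate once had an unjoined peak.

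The third segment, about 129 kb long, had 57, 42 and 20 called peaks in the untreated replicates and 48 and 63 after PMA. The fourth, about 90 kb on the side of the transcription start, had 19, 8 and 8 in the untreated replicates and 13 and 33 after PMA. Per 10 kb, the fourth segment held 2.11, 0.89 and 0.89 calls for untreated replicates 1, 2 and 3, against 1.46 for PMA replicate 2 and 3.71 for PMA replicate 3. The first segment held 5.25, 3.62 and 2.17 in the untreated and 4.72 and 5.27 in the PMA replicates, and the third segment 4.43, 3.26, 1.55, 3.73 and 4.89. In all 5 replicates the fourth segment was the least dense of these 3. Of the peaks in all segments it took 18.1%, 11.4% and 20% in untreated cells and 14.8% and 26.2% after PMA, with the highest value in PMA replicate 3 and the lowest in untreated replicate 2.

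Peak numbers also show where an unshared region stood on a stretch without any call in the other condition. For the 23 untreated regions with no PMA partner, each PMA replicate had at least 2 unjoined calls between the PMA regions on either side. No untreated region of Fndc3b can therefore be said to lack a peak after PMA. The region with the highest fold, 6.59, stood in the first segment with its 26 and 29 PMA calls, and the region with a fold of 5.85 in a stretch of 80.868 kb with 24 and 34.

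In the other direction, 3 of the 7 unshared PMA regions stood on a stretch where untreated replicate 3 called nothing. These were 27406164 to 27406600 and 27407976 to 27408702, between untreated regions 14.415 kb apart, and 27607821 to 27608450, in a stretch of 8.963 kb. In the first stretch untreated replicates 1 and 2 called 9 and 2 peaks. In the other, replicate 1 called 3, and replicate 2 called 3 within 14.374 kb. Untreated replicate 3 had the fewest calls of all 5, and positions of unjoined peaks are not in the lists, so no PMA region was shown to be without a peak in all untreated replicates.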

How the data were processed

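Both deposited lists are in MACS2's narrowPeak layout, 1 per condition, IP against input, in mm9. Per the submitters' processing notes, the tools were MACS2 2.1.0, STAR 2.5.0a, cutadapt 1.11, deepTools and featureCounts 1.4.6-p3. For peak calling and joining, settings were not given in the sources used here. Fold (a ratio of IP over input), −log10 q and score deposited by the authors are taken to be averages over the peaks joined in a region. Read depth is not in the lists.

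From these, numbers, widths, overlaps (at least 1 bp) and peak counts from member peak numbers were computed with scipy 1.17.1, numpy 2.4.6 and pandas 2.3.3 under Python 3.11.15, and drawn with matplotlib 3.10.9. The member numbers were checked to increase along every chromosome, and the code was tested on simulated lists. That these numbers are consecutive over called peaks was assumed. Shares have exact Clopper-Pearson and medians order-statistic 95% intervals. Called totals are the highest member number, a lower limit. Start coordinates are 1-based.

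The span, the tests left out and the alternatives were chosen with earlier results of these data known. Regions named are all PMA regions and, of the untreated, the 5 highest and 2 lowest by fold, the 3 widest, the first and the last, and those overlapping a PMA region. The RefSeq table of GRCm38.p6 gave only names, strand, length and neighbours.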

Additional observations from a re-analysis of the deposited data

How the results depend on the processing

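Of 93 alternative values for 19 results, 65 stayed within 1.5 times (numbers and differences) or within the 95% interval (shares and medians), and 7 turned direction. The 65 include the setting of regions wholly inside the span, which could change no value because no region crosses its edges. Intervals over so few regions are wide, so staying inside them is a weak check. The ratio of untreated to PMA region numbers, 2.45, became 0.273 to 0.364 without 1 untreated replicate and 0.909 with the untreated list at the length of the PMA list by −log10 q. Region numbers were then 3 to 4 and 10. Without 1 untreated replicate, the median untreated width was 656 to 853 bp, the PMA minus untreated width ran from −126 to 71 bp (213 bp with all replicates), 0% to 50% of untreated regions lay toward the transcription start, and 9.09% of PMA regions had an untreated partner. These lists keep few regions by their construction, and all of those (100%) have a peak in each remaining replicate. Without replicate 2 or 3 they include the 3 widest untreated regions. The turns in region number and width without a replicate are therefore set by the rule of 3 member peaks. At equal length the median untreated fold was 4.47, 100% of regions had a peak in each replicate, and 9.09% of PMA regions had a partner. The PMA minus untreated median fold, −0.64, was 0.21 at a mean −log10 q of 3 or more, −0.16 with regions within 1 kb merged and −1.14 at equal length; the cause was not tested. The upper limit of called peaks exceeded the lower by over 1.5 times only in PMA replicate 3 (221 against 134). Leaving out a PMA replicate gave no value, since no Fndc3b region has more than 2 member peaks from 1 PMA replicate. No paired analysis was possible because no result here comes from a test: regions have no values per replicate, and calls per replicate are described only. Unknown depth limits every comparison of called peaks between replicates.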
